A study of Mus musculus with 4 samples.

Results

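Regulatory T (Treg) cells can leave their resting state and become effector Treg cells. Chromatin accessibility was described here at the genes of 7 transcriptional regulators linked to this change, which need not all promote it: Prdm1, Irf4, Batf, Maf, Bcl6, Id2 and Id3. Every ATAC-seq peak of 4 libraries that fell within the body of 1 of these genes or within 20 kb of either end was taken, and peaks that shared 1 bp or more were merged across libraries. This gave 62 regions of the 272233 regions in the genome. Genes were placed with the GENCODE annotation of GRCm38, whose coordinates are those of the mm10 build that the peaks use.

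Treg cells were sorted as RFP+ cells from lymph nodes (LNs) of naive, unstimulated female C57BL/6 mice aged 6-8 weeks, 50000 cells per library, with 2 wild-type (WT) and 2 Il2ramut/mut libraries. All mice carried the Foxp3 Rfp/Rfp reporter, in which red fluorescent protein marks cells that express Foxp3. The mutant mice carry a point mutation in Il2ra, which encodes CD25, the alpha chain of the IL-2 receptor, and the comparison asks which accessible regions differ when Treg cells receive weaker IL-2 signals. Both genotypes are germline and all lymphocytes of the mutant mice carry the mutation, so that effects inside Treg cells and effects of other mutant cells on them cannot be told apart.

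Blimp-1, the protein of Prdm1, is a transcriptional repressor that marks effector Treg cells and is needed for their IL-10 production. IRF4 and BATF bind DNA together at composite elements and drive effector differentiation of T cells. c-MAF, encoded by Maf, promotes IL-10 expression, and BCL6 is a repressor that opposes Blimp-1 and directs follicular T cells. ID2 and ID3 have no DNA-binding domain of their own and act by capturing E proteins, which bind the E-box. IL-2 acts largely through STAT5, which is known to activate Prdm1 and to repress Bcl6 in T cells.

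The lists held between 112569 and 142732 peaks per library, covering 42.6 to 52.3 Mb, and the total number of reads per library is unknown. The fold enrichment of 100% of peaks translated into whole reads (within 0.02 reads), if each library has a single background level and 1 read is added to the numerator and the denominator, so the summit height of each peak is also given as reads. The median peak held only 8 to 10 reads. All 9 marker genes of Treg and CD4 T cells that were examined, among them Foxp3, Ctla4 and Ikzf2, had a promoter peak in all 4 libraries. Of 12 marker genes of CD8 T cells, B cells, myeloid cells and NK cells, 11 had none in any library. The exception was Cd8b1, at percentiles 84.2 and 84.5 in WT and 66.2 and 76.5 in Il2ramut/mut, while Cd8a had no promoter peak. Foxp3 stood at 47.8 and 78.5 in WT and 72.6 and 79.7 in the mutant. Cd4 stood at 83.2 and 83.8 in WT and 76.4 and 71.4 in the mutant. Cd8b1 thus ranked above both in the WT libraries. The median of the 9 Treg and CD4 markers lay between 88.6 and 92.8 in each library. The methods state that CD4+ T cells were enriched by negative selection before the RFP+ sort, and a part of CD8 T cells in the results was not tested.

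The regions that carry the differences described below are shown by the 150 bases centred on the summit of their strongest peak, on the plus strand of GRCm38.p6 from the RefSeq genome. Capitals mark the words of 13 short motifs searched on both strands: TTCNNNGAA (STAT5), TGANTCA (AP-1 and BATF), GAAANNGAA (IRF), AGGAAG (ETS), TGTGGT (RUNX), TGTTTAC (forkhead), GGGCGGG (GC box), CAGCTG and CAGGTG (E-box), TTCAAAG (TCF1 and LEF1), AGATAA (for GATA factors), GGGANTTTC (NF-kappaB) and TGCTGAC (MAF). Prdm1 region 9 and Irf4 region 14 were called in both WT libraries and in no mutant library.
Prdm1 region 9, chr10:44527268-44527417: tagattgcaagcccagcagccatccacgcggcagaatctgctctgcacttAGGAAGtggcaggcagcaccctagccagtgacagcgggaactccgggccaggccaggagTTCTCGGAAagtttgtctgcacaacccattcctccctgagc
Irf4 region 14, chr13:30785695-30785844: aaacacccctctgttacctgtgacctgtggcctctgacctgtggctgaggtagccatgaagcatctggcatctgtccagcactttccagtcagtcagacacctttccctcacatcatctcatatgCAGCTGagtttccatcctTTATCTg
The next 4 regions ranked higher in both WT libraries than in both mutant libraries. The promoter of Batf, which did so too, is not shown because its window, unlike those shown, crosses the start site of its own gene.
Irf4 region 2, chr13:30742558-30742707: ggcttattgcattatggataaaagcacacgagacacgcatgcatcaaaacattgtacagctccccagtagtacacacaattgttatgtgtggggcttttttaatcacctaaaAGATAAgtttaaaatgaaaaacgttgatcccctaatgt
Irf4 region 3, chr13:30747583-30747732: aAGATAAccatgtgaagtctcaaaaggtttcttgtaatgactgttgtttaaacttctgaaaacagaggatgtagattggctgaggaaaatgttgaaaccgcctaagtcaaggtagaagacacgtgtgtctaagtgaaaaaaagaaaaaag
Irf4 region 9, chr13:30760413-30760562: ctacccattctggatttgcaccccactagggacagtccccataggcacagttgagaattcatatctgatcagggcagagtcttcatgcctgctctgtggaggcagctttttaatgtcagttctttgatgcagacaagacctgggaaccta
Bcl6 region 10, chr16:23997292-23997441: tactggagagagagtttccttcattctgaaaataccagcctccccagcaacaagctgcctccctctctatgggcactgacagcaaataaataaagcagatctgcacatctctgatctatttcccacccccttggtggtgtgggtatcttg
The following 6 regions ranked higher in both mutant libraries than in both WT libraries.
Prdm1 region 7, chr10:44483246-44483395: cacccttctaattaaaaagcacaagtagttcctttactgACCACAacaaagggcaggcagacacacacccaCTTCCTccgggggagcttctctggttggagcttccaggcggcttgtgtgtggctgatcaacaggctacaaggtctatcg
Irf4 region 13, chr13:30777879-30778028: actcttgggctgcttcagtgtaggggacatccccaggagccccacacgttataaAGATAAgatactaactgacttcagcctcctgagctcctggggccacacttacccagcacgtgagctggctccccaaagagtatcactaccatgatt
Maf region 2, chr8:115707827-115707976: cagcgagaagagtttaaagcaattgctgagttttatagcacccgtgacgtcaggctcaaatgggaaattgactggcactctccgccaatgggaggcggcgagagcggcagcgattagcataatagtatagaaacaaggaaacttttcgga
Maf region 5, chr8:115726956-115727105: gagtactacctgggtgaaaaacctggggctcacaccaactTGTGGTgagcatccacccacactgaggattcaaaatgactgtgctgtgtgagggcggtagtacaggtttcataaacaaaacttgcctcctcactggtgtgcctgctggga
Bcl6 region 7, chr16:23988868-23989017: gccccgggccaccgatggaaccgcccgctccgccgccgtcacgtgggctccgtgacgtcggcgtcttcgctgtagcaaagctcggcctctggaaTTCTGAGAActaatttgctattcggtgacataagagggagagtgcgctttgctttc
Id2 region 3, chr12:25098875-25099024: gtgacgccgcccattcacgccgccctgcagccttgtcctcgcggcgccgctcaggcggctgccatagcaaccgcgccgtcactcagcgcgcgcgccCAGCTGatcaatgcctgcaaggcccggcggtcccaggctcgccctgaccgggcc
Prdm1 region 10, with the highest rank of any region outside the promoters defined below, is shown for comparison.
Prdm1 region 10, chr10:44529440-44529589: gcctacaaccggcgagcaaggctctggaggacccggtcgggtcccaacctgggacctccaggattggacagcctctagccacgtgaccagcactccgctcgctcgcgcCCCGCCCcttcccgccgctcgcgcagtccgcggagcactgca
The GATA word was present in Irf4 regions 2 and 3, which ranked higher in WT, in region 13, which ranked higher in the mutant, and in region 14. The STAT5 word was present in Prdm1 region 9 and Bcl6 region 7. Irf4 region 9, Maf region 2 and Bcl6 region 10 held none of the words in these 150 bases.

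Over the 200 bases around the summit, the STAT5 word was found in 3 of the 34 regions called in all 4 libraries, which is 8.82%, against 5.91% of 38281 such windows in the genome. The AP-1 and BATF word was also found in 3 regions, against 7.96% of windows. The IRF word was found in 0 of the 34, against 6.65% of windows, although this says only that these letters were not in these windows. The E-box word CAGCTG was found in 7 regions (20.6%, against 12.7%) and CAGGTG in 6 (17.6%, against 16.0%). The ETS word was found in 9 (26.5%, against 35.2%), the RUNX word in 7 (20.6%, against 19.1%) and the GC box in 6 (17.6%, against 15.4%). The GATA word was found in 3 regions (against 7.61% of windows), the forkhead word in 2 (2.71%), and the NF-kappaB, TCF1 and MAF words in 1 each (1.15%, 4.21% and 3.85%). The STAT5 word, the AP-1 and BATF word and CAGCTG read the same on both strands, and words may overlap one another. A word match is a description of the sequence and not a bound site.

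The 7 genes were mostly accessible in the same places in both genotypes. Of the 62 regions, 34 were called in all 4 libraries (54.8%), against 14.1% of all regions in the genome, and 18 were called in a single library (29.0%), against 61.3% of all regions. The other 10 were called in 2 or 3 libraries. The 34 shared regions had a median width of 822 bp and the other 28 of 256 bp, and no region outside the 34 held more than 17 reads at its summit in any library. Between 39 and 50 of the 62 regions were called per library, the fewest in WT replicate 1 and the most in WT replicate 2.

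**Figure D1:**
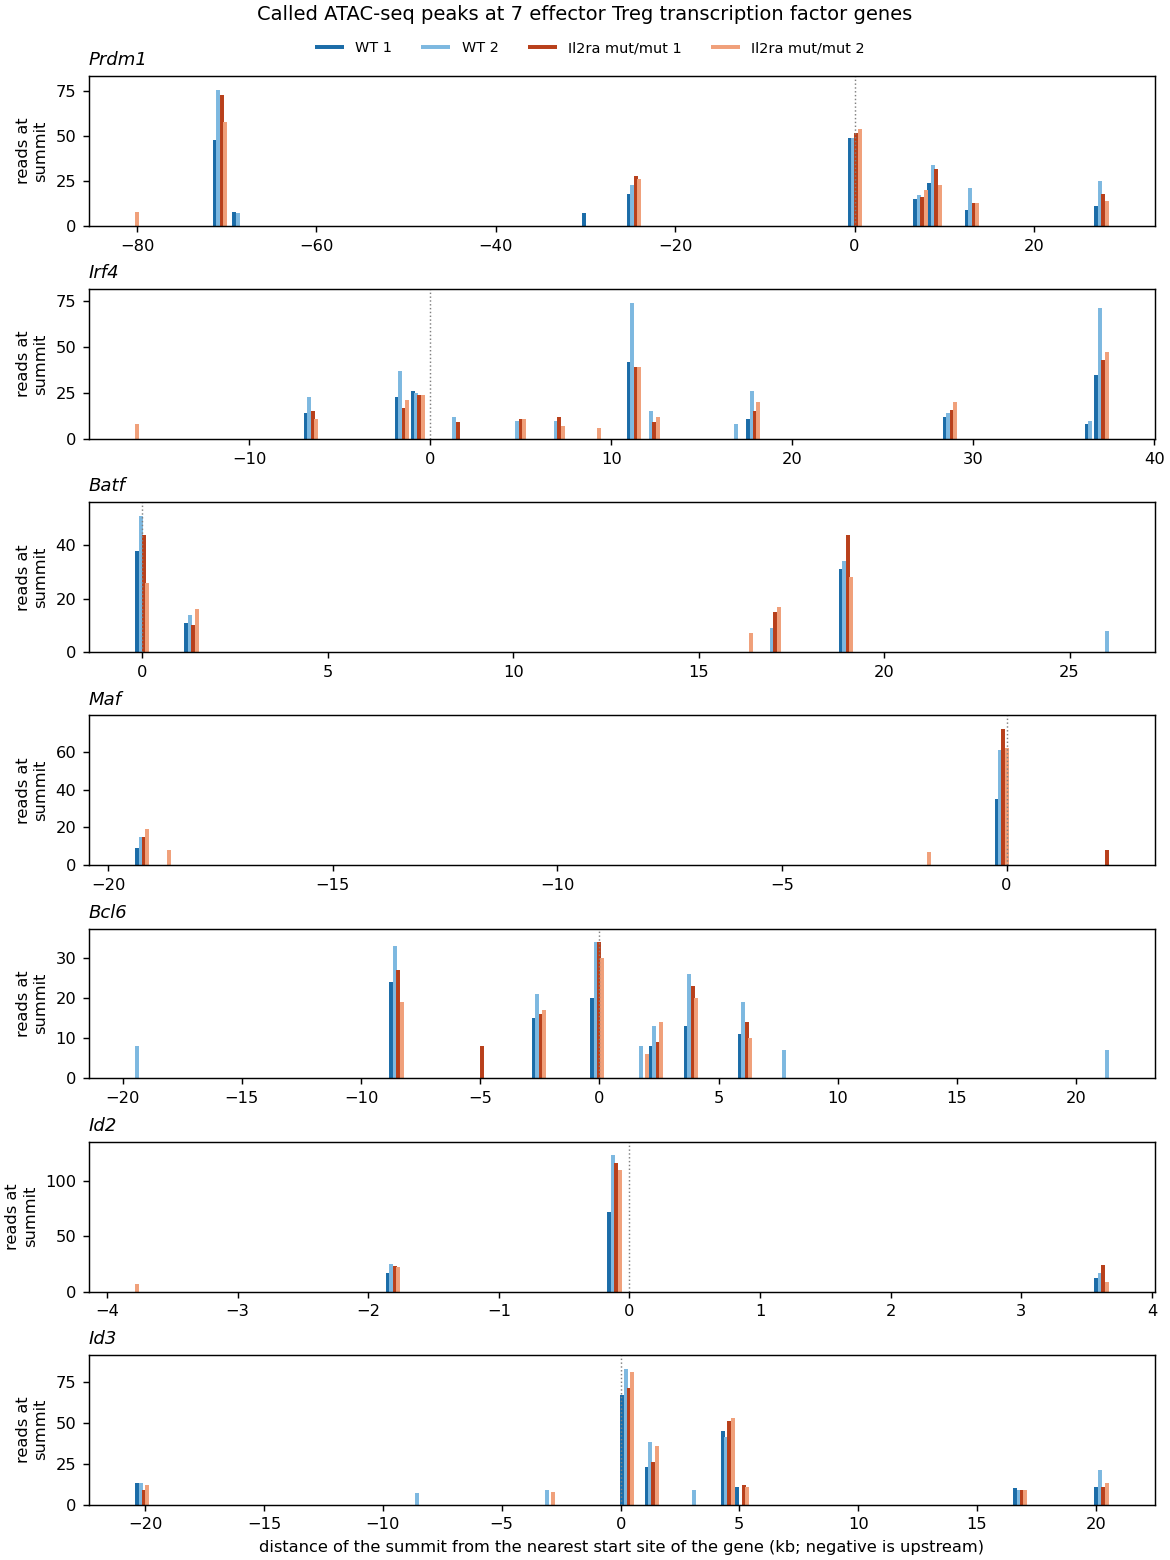
Reads at the summit of every called peak region (y axis, 1 bar per library) against the distance of the summit from the nearest start site of the gene in kb (x axis, negative upstream, dotted line at the start site), 1 panel per gene with its own axes. Tall bars come as groups of 4, 1 per library, whereas bars that stand alone or in pairs hold few reads, as at Prdm1 region 9 with 8 and 7 reads in the WT libraries.

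The number of shared regions differed between the genes. Irf4, on chromosome 13, had 15 regions in a window of 57.8 kb, 7 of them in all 4 libraries. Prdm1, on chromosome 10, had 11 regions in the widest window, of 131 kb, and 7 were shared. Bcl6, on chromosome 16, had 11 with 6 shared, and Id3, on chromosome 4, had 10 with 6 shared. Batf and Id2, both on chromosome 12, had 6 and 4 regions with 3 shared each, and Maf, on chromosome 8, had 5 with 2 shared.

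Promoters were open in both genotypes. A promoter region was defined as one that overlapped 1 kb to either side of a start site of the basic annotation. Of 9 such regions, 8 were called in all 4 libraries. The exception, Prdm1 region 5 in the first intron, was called in WT replicate 1 only, with 7 reads. The promoter of Id2 was the strongest region of the 7 genes, with 72 and 123 reads in WT and 116 and 110 reads in Il2ramut/mut, and a −log10 p of 107 and 209 against 183 and 178. That of Id3 held 67 and 83 reads in WT and 71 and 81 in the mutant. The promoter of Prdm1 held 49 reads in each WT library and 52 and 54 in the mutant, and its fold enrichment was 25.3 ± 0.047 in WT and 25.3 ± 2.09 in the mutant (SD, n = 2). At these 3 promoters the genotypes overlapped in percentile and in fold enrichment, although the Prdm1 reads themselves did not. The promoter of Irf4 held 26 and 25 reads in WT and 24 in each mutant library, and overlapped in percentile but not in fold enrichment, at 13.4 ± 0.383 in WT and 11.7 ± 0.661 in the mutant (SD, n = 2, limma adjusted p = 0.909).

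To rank peaks without knowing the depth, each peak was given the percentile of its −log10 p among all peaks of its own library. Where both libraries of one genotype lay above both libraries of the other, the region was said not to overlap between genotypes. With 2 libraries against 2, an exact permutation test (two-sided) cannot give a p below 0.33, which every such region reached, so that no region can be called different by it. Of the 34 shared regions, 5 ranked higher in WT and 6 higher in Il2ramut/mut, and 23 overlapped. Across the genome 12.6% of the 38426 shared regions ranked higher in WT and 26.2% higher in the mutant. The median difference, mutant minus WT, was 0.301 percentile points over the 34 regions and 0.646 over all shared regions. Fewer cells with an open region and less opening per cell cannot be told apart in these bulk libraries.

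The split depended on the scale. With percentiles taken among the shared regions only, 6 of the 34 ranked higher in each genotype, against 19.4% and 20.4% of all shared regions for WT and the mutant. With the fold enrichment itself, 7 regions were higher in both WT libraries, against 17.2% genome-wide, and 3 in both mutant libraries, against 12.2%. Restricting the lists to a −log10 q of 3 or more left 34 shared regions at the 7 genes, 1 higher in WT and 14 higher in the mutant, against 5.19% and 44.1% of the 31479 shared regions of the genome. Under both the percentile and the fold enrichment, 4 regions were higher in WT (Irf4 regions 2, 3 and 9 and Bcl6 region 10) and 2 higher in the mutant (Prdm1 region 7 and Irf4 region 13).

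**Figure D2:**
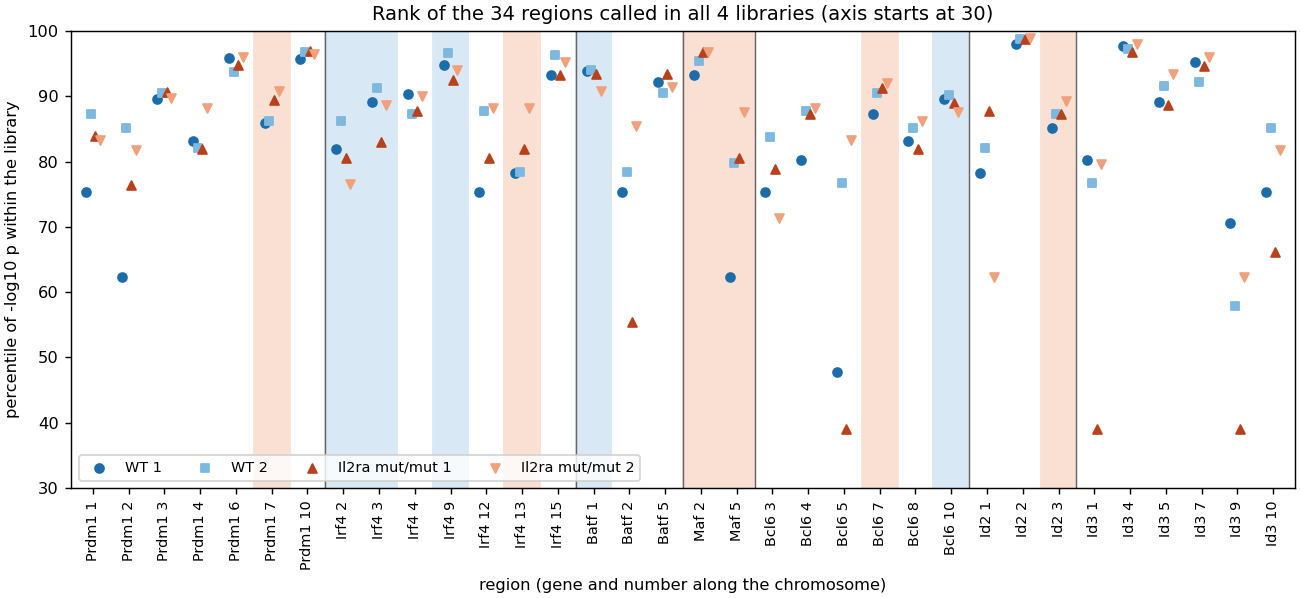
Percentile of the −log10 p of each of the 34 regions called in all 4 libraries among the peaks of the same library (y axis, starting at 30) by region (x axis), 1 symbol per library. Blue bands mark the 5 regions with both WT libraries above both mutant libraries, red bands the 6 with the opposite order, and the lowest symbols, at Bcl6 region 5 and Id3 regions 1 and 9, come from Il2ramut/mut replicate 1.

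A limma fit across the 38426 shared regions, on the log2 fold enrichment after quantile normalization, called no region in either direction. The genome-wide share was 0% higher and 0% lower in the mutant at an adjusted p below 0.05 (Benjamini-Hochberg), and 0 of the 34 regions were called. At an unadjusted p below 0.05, 1607 regions were higher and 1678 lower, of which 1 and 2 belonged to the 7 genes. Those 3 were Maf region 2, Irf4 region 9 and Irf4 region 3. Over the 34 regions the median log2 difference was -0.01, and it was 0.00 over all shared regions. The labels do not say that the libraries of a genotype come from separate mice, and the paper's methods call them biological replicates. All p-values measure the spread between these libraries.

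The Prdm1 gene (ENSMUSG00000038151, minus strand) carried its strongest peaks at the promoter and far upstream. Region 10, at chr10:44529061-44530009, lies 70.8 kb upstream of the nearest start site of the basic annotation. It held 48 and 76 reads in WT and 73 and 58 in the mutant. It thus exceeded the promoter in every library but WT replicate 1, where the promoter held 49 reads, and the genotypes overlapped. Prdm1 region 7, at chr10:44483054-44483582 and 24.6 kb upstream, held 18 and 23 reads in WT and 28 and 26 in the mutant. Its percentile was 86.1 ± 0.238 in WT and 90.2 ± 1.02 in Il2ramut/mut (SD, n = 2), and both mutant libraries were also higher by fold enrichment, although limma gave a log2 difference of 0.37 ± 0.21 (SE) with an adjusted p of 0.655. It was 4.03 percentile points higher in the mutant. Regions 7 and 10 do not lie at a start site of the basic annotation. The annotated gene body, however, reaches 69.8 kb further upstream than the basic transcripts, which is why the window of Prdm1 is the widest. Regions 7 and 9 lie inside this body, and region 10 begins 560 bp beyond its 5′ end. Regions 9 and 10 lie within 1 kb of that end. They would count as promoter regions if it were taken as a start site.

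Prdm1 region 9, at chr10:44526934-44527515, is 1 of 2 regions at the 7 genes that were called in both libraries of one genotype and in neither of the other. It held 8 and 7 reads in the WT libraries and was called in neither mutant library. The median peak held 8 reads in both WT libraries and in Il2ramut/mut replicate 2, and 10 in Il2ramut/mut replicate 1. The lowest peaks held 5 reads, or 6 in Il2ramut/mut replicate 1. Region 9 stood at percentiles 47.8 and 24.5 in the WT libraries, below the middle of each list. The other was Irf4 region 14, at chr13:30785645-30786007, with 8 and 10 reads in WT. Across the genome 2.70% of regions were called in both WT libraries only and 3.56% in both mutant libraries only, and of the 62 regions 2 and 0 were. The remaining Prdm1 regions in the introns, 3 and 4 in intron 4 and 2 in intron 5, were shared by all 4 libraries and overlapped between genotypes, with 9 to 34 reads.

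Irf4 (ENSMUSG00000021356, plus strand) held 3 of the 5 regions that ranked higher in WT, and 7 of the 34 shared regions. Across the genome 12.6% of shared regions ranked higher in WT. Region 9, at chr13:30760160-30760991 in intron 7 and 11.3 kb from the start site, held 42 and 74 reads in WT and 39 in each mutant library. Its −log10 p was 53.7 and 110 in WT and 44.8 and 47.4 in the mutant, and its fold enrichment 29.8 ± 11.4 in WT and 18.7 ± 1.06 in Il2ramut/mut (SD, n = 2). The limma difference was -0.58 ± 0.17 on the log2 scale (SE, unadjusted p = 0.0136, adjusted p = 0.582). WT replicate 1, with 42 reads, lay close to the mutant libraries. The difference in percentile, mutant minus WT, was -2.44, and it was -3.38 without WT replicate 1, -1.50 without WT replicate 2, -1.68 without Il2ramut/mut replicate 1 and -3.20 without Il2ramut/mut replicate 2.

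Irf4 region 3, at chr13:30747079-30748100 and 1.57 kb upstream, held 23 and 37 reads in WT and 17 and 21 in the mutant. The limma difference there was -0.63 ± 0.23 (SE, log2, adjusted p = 0.582). Irf4 region 2, at chr13:30742273-30742987 and 6.59 kb upstream, held 14 and 23 reads in WT and 15 and 11 in the mutant, and its percentile was 84.1 ± 3.10 in WT and 78.6 ± 2.86 in the mutant (SD, n = 2), with an adjusted p of 0.628 by limma. The difference in percentile at region 3, mutant minus WT, was -4.32, and it was -1.45 without Il2ramut/mut replicate 1 and -7.20 without Il2ramut/mut replicate 2. At region 2 it was -5.53, and -3.34 without WT replicate 2 and -3.51 without Il2ramut/mut replicate 2. At region 2 the higher mutant library held 1 read more than the lower WT library, and at region 3 it held 21 against 23. Irf4 region 4, which covers the promoter at chr13:30748341-30749801, lies directly beside region 3 and had percentiles of 88.9 ± 2.26 and 89.0 ± 1.63.

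Downstream of Irf4 the order was mixed. Region 13, at chr13:30777694-30778108, held 12 and 14 reads in WT and 16 and 20 in the mutant, and ranked higher in both mutant libraries by 6.71 percentile points (log2 difference 0.39 ± 0.26 (SE), adjusted p = 0.689, limma). This difference was 3.54 without Il2ramut/mut replicate 2. With percentiles taken among the shared regions only, which is another scale, it was 12.8. On that scale the differences at regions 2, 3 and 9 were larger too, at -16.6, -16.3 and -9.67. Region 15, at chr13:30786066-30786710, was the highest-ranked Irf4 region outside the promoter, with 35 and 71 reads in WT and 43 and 47 in the mutant. Its genotypes overlapped. Regions 14 and 15 lie in the body of the annotated gene Gm29675, so that they may belong to that gene. Inside Irf4, regions 5, 6, 7 and 10 were called in 2 or 3 libraries each with at most 15 reads, and none of them was called in WT replicate 1.

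The plot of fold enrichment at the 11 regions that did not overlap in rank shows how close the genotypes were. WT replicate 2 had the highest fold enrichment at all 5 regions that ranked higher in WT, and WT replicate 1 had the lowest at all 6 regions that ranked higher in Il2ramut/mut.

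**Figure D3:**
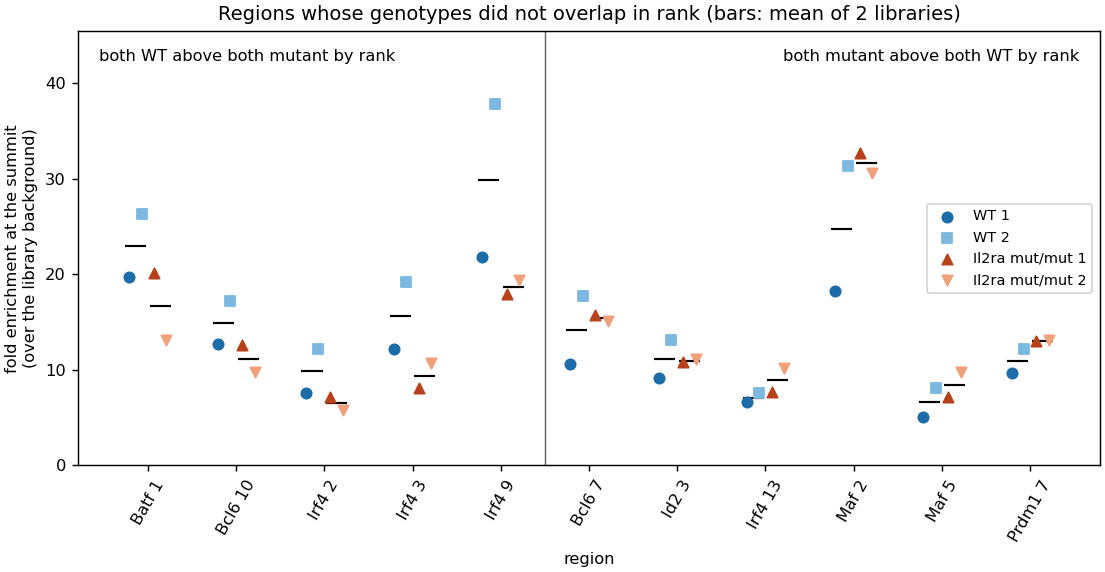
Fold enrichment at the summit over the library background (y axis, linear from 0) for the 11 regions whose genotypes did not overlap in percentile (x axis), 1 symbol per library, with bars at the mean of the 2 libraries of a genotype. Irf4 region 9 has the widest gap on the left, 29.8 against 18.7, with WT replicate 2 well above the other libraries, and on the right WT replicate 2 reaches or passes a mutant library at Bcl6 region 7, Id2 region 3, Maf region 2 and Maf region 5.

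Batf (ENSMUSG00000034266, plus strand) had its strongest regions at the promoter and in intron 2. The promoter, at chr12:85686204-85687091, held 38 and 51 reads in WT and 44 and 26 in the mutant. It ranked higher in both WT libraries, at 94.0 ± 0.0452 against 92.2 ± 1.86 (SD, n = 2), but by fold enrichment Il2ramut/mut replicate 1 (20.2) lay above WT replicate 1 (19.8), and limma gave -0.43 ± 0.24 (SE, log2, adjusted p = 0.632). The difference in percentile, mutant minus WT, was -1.83, and it was -0.517 without Il2ramut/mut replicate 2 and -3.14 without Il2ramut/mut replicate 1. Region 5 in intron 2, at chr12:85704578-85706370, held 31 and 34 reads in WT and 44 and 28 in the mutant, and overlapped. Region 4, also in intron 2 at chr12:85703533-85703878, was not called in WT replicate 1 and held 9 reads in WT replicate 2, against 15 and 17 in the mutant.

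Maf (ENSMUSG00000055435, minus strand) was the only one of the 7 genes at which every shared region ranked higher in the mutant, although there were only 2. Genome-wide, 26.2% of shared regions did so. Its promoter, region 2 at chr8:115705621-115708569, held 35 and 61 reads in WT and 72 and 62 in Il2ramut/mut. The percentiles were 93.3 and 95.4 in WT and 96.8 in each mutant library, and limma gave a log2 difference of 0.43 ± 0.16 (SE, unadjusted p = 0.0338, adjusted p = 0.582). The percentile difference of 2.47 was 1.41 without WT replicate 1. By fold enrichment WT replicate 2 (31.3) lay above Il2ramut/mut replicate 2 (30.6), and the region also covers the start of Gm15655, a neighbouring gene. Region 5, at chr8:115726717-115727241 and 19.2 kb upstream, held 9 and 15 reads in WT and 15 and 19 in the mutant, with percentiles of 71.1 ± 12.4 and 84.1 ± 4.99 (SD, n = 2). The limma difference was 0.49 ± 0.28 (SE, log2, adjusted p = 0.650). WT replicate 2 and Il2ramut/mut replicate 1 held the same number of reads there, and their percentiles were 79.9 and 80.6. The percentile difference at region 5 was 4.24 without WT replicate 1 and 21.7 without WT replicate 2.

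Bcl6 (ENSMUSG00000022508, minus strand) had 1 region that ranked higher in each genotype. The promoter, region 7 at chr16:23987553-23990227, held 20 and 34 reads in WT and 34 and 30 in Il2ramut/mut. Its percentile was 89.0 ± 2.21 in WT and 91.7 ± 0.545 in the mutant, whereas by fold enrichment WT replicate 2 (17.7) was the highest library, and the limma difference was 0.24 ± 0.20 (SE, log2, adjusted p = 0.734). The percentile difference of 2.75 was 1.19 without WT replicate 1 and 4.31 without WT replicate 2. The start of Gm37419 lies in the same region. Region 10, at chr16:23997160-23997698 and 8.51 kb upstream, held 24 and 33 reads in WT and 27 and 19 in the mutant, with percentiles of 89.9 ± 0.461 and 88.4 ± 0.994 (limma adjusted p = 0.685). The difference there, mutant minus WT, was -1.53, and it was -0.828 without Il2ramut/mut replicate 2. The other 4 shared regions of Bcl6, 3 in intron 1 and 1 upstream, overlapped between genotypes.

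Of the shared regions 1 of 3 at Id2 and 0 of 6 at Id3 did not overlap between genotypes. Across the genome 12.6% of shared regions ranked higher in WT and 26.2% higher in the mutant. At Id2 (ENSMUSG00000020644, minus strand), region 3 at chr12:25098277-25099151 held 17 and 25 reads in WT and 23 and 22 in the mutant, and ranked higher in the mutant by 2.09 percentile points although WT replicate 2 had the highest fold enrichment (13.1, against 9.12 in WT replicate 1 and 10.8 and 11.2 in the mutant). The percentile difference at Id2 region 3 was 1.03 without WT replicate 1, 3.15 without WT replicate 2, 1.12 without Il2ramut/mut replicate 2 and 0.877 with equal numbers of peaks per library. At Id3 (ENSMUSG00000007872, plus strand), none of the 6 shared regions was separated by percentile. Region 7, at chr4:136147527-136148345 and 4.50 kb from the start site, was the strongest Id3 region outside the promoter, with 45 and 41 reads in WT and 51 and 53 in the mutant. It was higher in both mutant libraries by fold enrichment, at 22.3 ± 1.47 against 24.8 ± 2.06 (adjusted p = 0.824, limma), but not by percentile.

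The study defined open chromatin regions (OCRs) by their irreproducible discovery rate (IDR), which asks whether the ranks of a peak agree in both libraries of a genotype, and the same threshold of 0.05 was applied here. Of the OCRs at the 7 genes 24 were common to both genotypes, 5 unique to WT and 4 unique to Il2ramut/mut. Genome-wide 71.9% of 29224 OCRs were common, 14.4% unique to WT and 13.7% unique to the mutant. The WT-unique OCRs were Batf region 2, Bcl6 region 3, Id2 region 1 and Id3 regions 1 and 10, and the mutant-unique ones were Prdm1 region 1, Batf region 4, Maf region 5 and Id3 region 8.

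Each of the 9 unique OCRs overlapped a called peak of the other genotype. Across the genome 93.0% of the 4210 WT-unique OCRs and 96.6% of the 4013 mutant-unique OCRs did. All 5 WT-unique OCRs had a called peak in all 4 libraries, and so did Prdm1 region 1 and Maf region 5. At Id2 region 1 the reads were 12 and 17 in WT and 24 and 9 in the mutant, and the IDR was 0.00614 for WT and 0.497 for Il2ramut/mut, whose libraries lay on either side of both WT libraries. At Batf region 2 the reads were 11 and 14 in WT and 10 and 16 in the mutant, with IDRs of 0.0144 and 0.449. At Id3 region 10 they were 11 and 21 in WT and 11 and 13 in the mutant, with IDRs of 0.00828 and 0.314. Bcl6 region 3 held 11 and 19 reads in WT and 14 and 10 in the mutant (IDRs of 0.0171 and 0.13), and Id3 region 1 held 13 in each WT library and 9 and 12 in the mutant (0.0257 and 0.424). The reads of the genotypes overlapped at 4 of these 5 regions, all but Id3 region 1. Prdm1 region 1 held 11 and 25 reads in WT and 18 and 14 in the mutant and missed the threshold in WT narrowly, at 0.0517. Id3 region 8 held 12 and 11 reads in the mutant and 11 in WT replicate 1, and was not called in WT replicate 2. Of the 11 regions that did not overlap in percentile, Maf region 5 was the only OCR unique to a genotype, where the IDR was 0.282 for WT and 0.00393 for the mutant.

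Other genes of the same pathways were described by lists that were set for this comparison. The 15 genes that encode partners and relatives of BATF and IRF4, such as Jun, Junb and Irf8, had 113 regions, of which 59 were shared, 4 ranked higher in WT and 16 higher in the mutant. The list of 5 ID and E protein genes and Cxcr5, a chemokine receptor gene of follicular T cells, had 97 regions with 27 shared, 7 higher in each genotype. Of these, Cxcr5 alone held 21 regions with 13 shared, 2 higher in WT and 3 higher in the mutant, which leaves 76 regions with 14 shared, 5 higher in WT and 4 higher in the mutant. Genes of effector Treg cells had 165 regions with 84 shared, 11 higher in WT and 22 higher in the mutant, and genes of resting Treg cells, such as Ccr7, Bach2 and Lef1, had 247 with 95 shared, 25 higher in WT and 13 higher in the mutant. The medians of the percentile difference were 0.361, -0.0254, 0.20 and -0.863 in the same order, against 0.301 at the 7 genes. These lists carry no test.

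**Figure D4:**
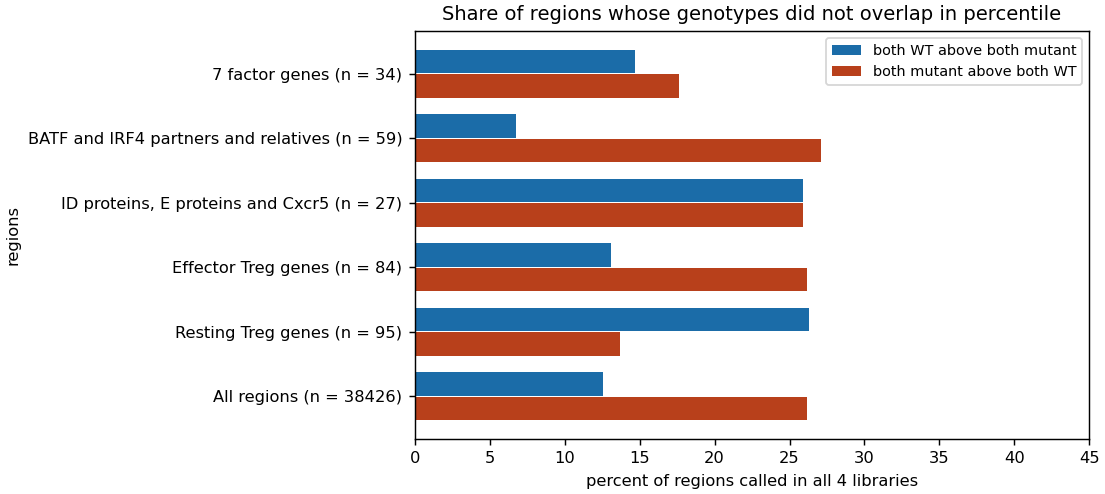
Percent of the regions called in all 4 libraries (x axis, n in parentheses) in which both WT libraries (blue) or both Il2ramut/mut libraries (red) had the higher percentile, for the 7 factor genes, 4 related gene lists and all regions (y axis), with Cxcr5 in the list of ID and E proteins. The 7 genes have 5 and 6 of 34 regions, next to 12.6% and 26.2% of all regions, and the resting Treg genes alone have more regions higher in WT (25) than in the mutant (13).

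For each gene, the gene of these lists with the most similar mean percentile of its peaks over the 4 libraries was found by Euclidean distance. Id3 lay closest to Ctla4, at 5.43 percentile points, and Irf4 was also closest to Ctla4, at 8.36. Prdm1 was closest to Irf2 (7.80), Batf to Il1rl1 (7.36), Maf to Irf8 (9.36) and Bcl6 to Lef1 (7.38). Id2 had the most distant match, Tcf3 (12.8). Each mean took only the regions called in that library, so weak regions called in a single library lowered its mean. For Maf the means were 77.8 and 87.7 in WT and 65.7 and 64.1 in the mutant, although both shared regions ranked higher in the mutant. A close match therefore does not mean a like difference at shared regions. The median difference there, mutant minus WT, was 7.73 at Maf and -6.26 at Irf8. These distances rest on 4 libraries and are a description only.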

How the data were processed

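ATAC-seq was analysed in 4 libraries of LN Treg cells, 2 WT and 2 Il2ramut/mut, grouped by the labels. Per the submitters' notes and the methods, the authors trimmed the reads with Trim Galore (0.3.7), mapped them to mm10 with BWA mem (0.7.13), processed them with SAMtools (0.1.19) and Picard (1.92), removed duplicate and mitochondrial reads, kept concordant pairs, shifted the reads for the cut position of the transposase, and called narrow peaks per library with MACS2 (2.1.0). The deposited lists give each peak a score, a fold enrichment (a ratio over the background), a −log10 p and a −log10 q, all values of the authors. They hold no read counts, so reads at the summit were derived from the fold enrichment, with 1 read added to summit and background, and depth is unknown.

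Peaks were joined by an overlap of at least 1 bp, and a region took the value of its strongest peak in each library. The 7 genes, the related lists and the marker lists were chosen with earlier results of these data known. The regions named are the promoters, the highest-ranked region of each gene outside its promoters, every region called in both libraries of 1 genotype only, every unique OCR, and the 6 largest differences in each direction among regions that did not overlap. Other regions were named after their values were seen. Regions called in all 4 libraries were tested with limma (3.58.1, R 4.3.3). The IDR model was coded with scipy (1.17.1), numpy (2.4.6) and pandas (2.3.3) under Python 3.11.15, ranking by −log10 p at a threshold of 0.05, with random but seeded order among ties. Both were tested on simulated data. Sequences were read with pysam (0.24.0), and figures drawn with matplotlib (3.10.9). The alternatives tried were other flanks, a stricter q, equal numbers of peaks, a larger overlap, other scales and normalizations, a replicate block, a stricter or no IDR, and leaving out each library. The thymic libraries, arrays and binding data are not analysed here.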

Additional observations from a re-analysis of the deposited data

How the results depend on the processing

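The number of regions at the 7 genes called in all 4 libraries stayed within 1.5 times its value of 34 under every alternative (28 with a flank of 10 kb, 46 with a flank of 50 kb, and 34 to 38 when a library was left out). Calls in both WT libraries alone fell from 2 to 1 with a flank of 10 kb or a −log10 q of at least 3. With a library left out they were 2 to 9, and calls in the mutant alone were 1 to 7. Fewer libraries must then hold or lack a peak. The genome-wide shares of such calls with a library left out or a stricter q are not given here, so these counts cannot be read as a trait of the 7 genes. The number of regions that ranked higher in WT was 1 and in the mutant 14 with a −log10 q of at least 3, against 5.19% and 44.1% of shared regions in the genome. With a library left out, where fewer libraries must agree, the numbers were 8 to 14 (21.1% to 41.2% of shared regions at the 7 genes, against 22.1% to 33.5% genome-wide) and 10 to 17 (28.9% to 48.6%, against 35.8% to 49.0%). Without Il2ramut/mut replicate 2, 14 of 34 ranked higher in WT. Fold enrichment in place of the percentile, added after seeing the data, gave 7 and 3. In limma no region of the 7 genes was called under any of the 9 alternatives, while over all regions median centring called 142 higher and 176 lower, no normalization 3 and 11, and a filter on low values 6 and 10. At an IDR threshold of 0.01, 3 OCRs at the 7 genes were WT-unique, 5 mutant-unique and 21 common, against 2807, 2833 and 18533 genome-wide. Without the IDR step the numbers were 2, 5 and 34, against 17872, 21994 and 36833. With a library left out, no IDR can be computed for its genotype. The strongest peaks of the remaining library stood in, as many as the genotype had OCRs (25343 for WT, 25590 for the mutant). Then 2 to 5 were WT-unique, 3 to 6 mutant-unique and 23 to 25 common, against 4126 to 4562, 3830 to 4659 and 20687 to 21020 genome-wide. Breaking ties in another order, also added after seeing the data, left 24 or 25 common, 5 or 6 WT-unique and 3 mutant-unique.

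The replicate numbers are shared by the genotypes, but the labels do not say that a number marks a shared litter or day. The deviations of same-numbered libraries from their group means correlated with r = 0.0109 over 38426 regions. In a replicate block, where same-numbered libraries are compared, 6 regions were lower and 10 higher in both mutant libraries, against 7300 and 14724 of all 38426 shared regions, and limma with the block called 0 in either direction.

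Of 20 regions tracked individually, 11 did not overlap between genotypes. Their sign held in the 22 values from percentiles among shared regions or equal numbers of peaks, and leaving out a library cannot turn it by construction. It can change the size, and 10 of the 11 moved by over 1.5 times. The other 9 regions overlapped, and 6 of them changed sign when a library was left out and 2 under the other alternatives. Of all 120 values 17 moved by more than the spread between replicates. Peaks of few reads limit what can be seen: a region not called in a library may lie just under the threshold.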
